A study of Arabidopsis thaliana with 30 samples.

Results

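The first 6 h of imbibition of Arabidopsis seeds were followed in total mRNA, with 3 arrays of dry seeds and 3 arrays of seeds at 6 hours after imbibition (HAI), 6 of the 30 arrays of the series. The other 24 arrays hold total mRNA at 26, 48 and 72 HAI and polysomal mRNA at all 5 time points. All seeds were wild-type Columbia (Col-0), fully after-ripened, meaning that dormancy had been lost in dry storage, and were imbibed in water on wetted blotter paper under continuous light. Each array holds RNA of whole seeds, from bulks of many plants, so that embryo, endosperm and seed coat were measured together. In such samples fewer cells of a type and less RNA per cell cannot be told apart. Every gene has a level on the log2 scale after RMA (robust multi-array average), a difference of 1 is a 2-fold change, and a level of 4 or less was taken as noise.

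A mature seed stores mRNAs that were made while it ripened on the mother plant. When it takes up water, respiration, transcription and translation resume within hours, long before the radicle appears. Abscisic acid (ABA) keeps a seed dormant and desiccation-tolerant, whereas gibberellin (GA) promotes germination by triggering the destruction of the DELLA repressors.

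Of the 27827 genes on the table, 17061 exceeded 4 in every replicate of 1 or more of the 10 groups of the series and were tested with limma. At 6 HAI 2871 genes were higher and 1695 were lower than in dry seeds, with a log2 change above 1 in size and an adjusted p below 0.05, which is 16.8% and 9.93% of the genes tested. The arrays of the 2 groups did not overlap for 2840 of the higher and 1671 of the lower genes, beside 59.5% of all genes tested. The median change over all genes tested was 0.10. Replicates correlated at 0.965 to 0.973 in dry seeds and at 0.984 to 0.986 at 6 HAI, and the median SD of a gene over its 3 replicates was 0.24 and 0.17. RMA sets the arrays to a common distribution, so each change is relative to the rest of the genes.

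The direction of change went with the level in dry seeds. Of the 264 genes with a dry mean above 10, 2 were higher at 6 HAI, PCK1 and FD3, and 96 (36.4%) were lower. Of the 5656 genes with a dry mean above 4 and up to 6, 1240 (21.9%) were higher and 422 (7.46%) lower. The dry level is part of both quantities, and levels of different genes also depend on their probes, so these shares are a description. The higher genes had a median level of 4.94 in dry seeds and 6.56 at 6 HAI, and the lower genes went from 7.07 to 5.33. There were 521 genes above 4 in all 3 arrays at 6 HAI and in none of dry seeds, and 264 with the opposite pattern. For 77 of the higher and 74 of the lower genes both means were at 4 or less, and the size of these changes is set in part by the background.

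**Figure D1:**
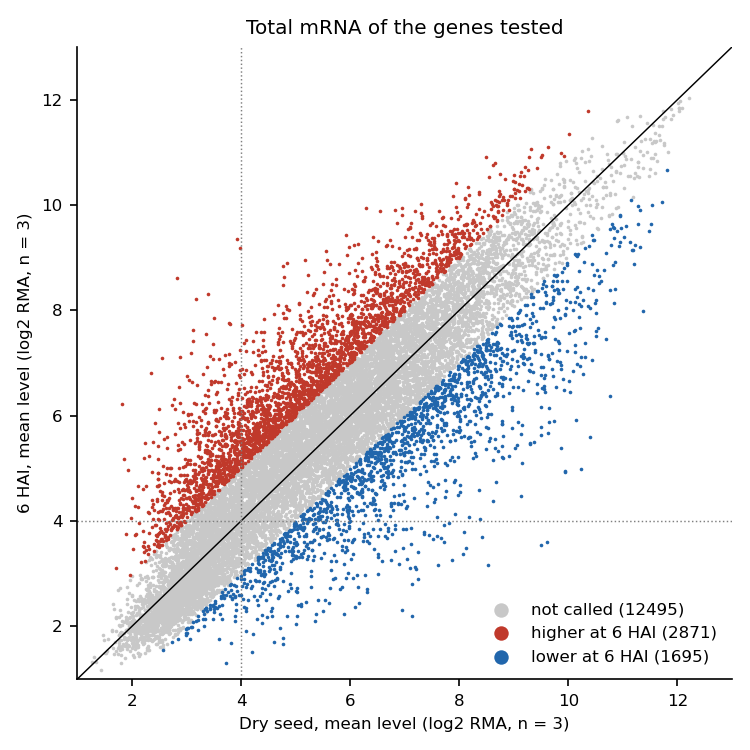
Mean level of each gene tested in total mRNA of dry seeds (x axis) and at 6 HAI (y axis), on the log2 scale, n = 3 arrays per group, with the line of equality and dotted lines at the noise level of 4. The 2871 genes called higher start at low and middle levels, whereas above a dry mean of 10 nearly all called genes lie below the line.

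The whole seeds carried the markers of mature seeds in both groups. The 9 seed markers examined (cruciferins, albumins, oleosins and the Em proteins) had mean levels of 10.22 to about 12 in dry seeds and 9.86 to 11.94 at 6 HAI. Of the 11 leaf markers, the same number, 4, had a mean above 4 in both groups, the highest being RBCS1A, a small subunit of Rubisco, at 7.03 and 7.72. The endosperm markers EPR1 (AT2G27380) and MFT were at 11.20 and 9.72 in dry seeds, while NCED6 and ZOU, which mark the developing endosperm, were below 4 in both groups.

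The largest increases among genes with a symbol went from noise to well-measured levels. TOM7-2, a small subunit of the protein import pore of the outer mitochondrial membrane, had levels of 2.81, 2.22 and 3.46 in dry seeds and 8.54, 8.51 and 8.77 at 6 HAI, an increase of 5.78 (standard error 0.36, adjusted p = 8.26e-13 from limma). PYL4, an ABA receptor, went from 3.74, 4.34 and 3.88 to 9.16, 9.17 and 9.25, an increase of 5.21 (0.13, adjusted p = 1.85e-20 from limma). Both genes were at or near noise in dry seeds, 1 of the PYL4 arrays lying at 4.34, and were above the median 6 HAI level of all genes tested (5.57) in every imbibed array. PYL4 stayed at this level, with a mean of 9.50 at 72 HAI, whereas TOM7-2 was back at 4.2.

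GA biosynthesis supplied 2 of the 12 largest increases. GA20OX3, an oxidase of the late steps of GA synthesis, went from 3.03, 3.24 and 3.91 to 8.36, 8.06 and 8.49. GA3OX2, which makes the bioactive form of the hormone, went from 2.37, 1.98 and 2.72 to 6.90, 6.74 and 6.78. The groups lay far apart for both. The other 8 of these genes were PAP10, a purple acid phosphatase (4.54), EXPA10, an expansin that loosens cell walls (4.51), ESE3, an ERF transcription factor (4.35), NTL8, a membrane-tethered NAC factor (4.22), EXL5, an EXORDIUM-like protein (4.11), ABI4, an ERF factor of ABA signalling (4.07), RACK1B_AT, a scaffold protein of the ribosome (4.06), and HB1, a haemoglobin (3.99). Dry levels of ABI4 and RACK1B_AT were above 4 in all 3 arrays, and for the other 6 at least 2 of the 3 dry arrays were below 4.

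The largest decreases began at much higher levels. SWEET6, of the family of sugar transporters, had levels of 9.50, 9.55 and 9.45 in dry seeds and 4.15, 3.15 and 3.34 at 6 HAI, so that its change was -5.96 (0.32, adjusted p = 4.99e-14 from limma). FBS1, a stress-induced F-box protein, went from 9.94, 9.92 and 9.96 to 4.75, 4.87 and 5.18. ZAT6, a zinc finger repressor of the stress response, went from 7.30, 6.98 and 7.13 to 2.64, 2.17 and 1.78. At 6 HAI ZAT6 was below noise in all 3 arrays, SWEET6 in 2 of 3, and FBS1 in none. NRT1.8, a nitrate transporter, fell from 10.39 ± 0.11 to 5.59 ± 0.26 (SD, n = 3), and GolS2, which makes galactinol for the raffinose sugars, fell from 10.14 ± 0.05 to 5.92 ± 0.32 (SD, n = 3). Both were still above noise at 6 HAI.

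The remaining 7 of the 12 fell by 3.96 to 4.63. They were the glycosyltransferase GT18, SIS, DIP2, SPD1, the CCCH zinc finger gene OZF2, and a pair of carotenoid cleavage genes, CCD7, which acts in strigolactone synthesis, and NCED4. CCD7 went from 7.59, 7.70 and 7.86 to 3.50, 3.69 and 3.60, and NCED4 from 9.59, 9.50 and 9.80 to 5.58, 5.68 and 5.74. Neither gene had overlapping groups, as the rule for naming these 24 genes required.

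**Figure D2:**
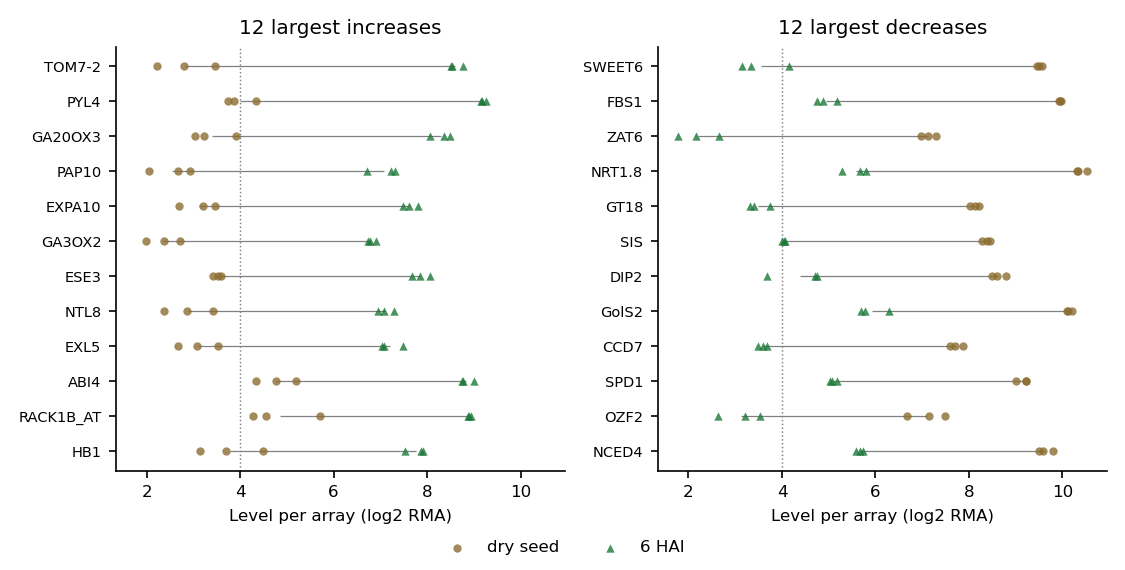
Level on the log2 scale in each of the 3 dry seed arrays (circles) and the 3 arrays at 6 HAI (triangles) for the 12 largest increases (left) and the 12 largest decreases (right) among genes with a symbol; grey bars join the group means and the dotted line is the noise level of 4. Most risers start below 4 and end at about 7 to 9, and the fallers start at about 7 to 10.5.

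What became of these levels later differed between genes. Among the 12 largest increases, the highest mean of the 5 time points was at 6 HAI for 6 genes, at 26 HAI for 4 and at 48 HAI for 2. GA20OX3 was at 8.30 at 6 HAI, 6.68 at 26 HAI and 1.96 at 72 HAI, and NTL8 fell back from 7.11 to 2.61. EXPA10 and GA3OX2 instead rose further, to 10.19 and 8.83 at 26 HAI. None of the 12 largest decreases had returned to within 1 of its dry level at 72 HAI, although SPD1 had gone from 5.09 at 6 HAI back up to 6.97. Of all 2871 higher genes, 940 (32.7%) had their highest mean at 6 HAI and 1265 (44.1%) at 26 HAI, and 1537 (53.5%) had a mean at 72 HAI less than 1 above the dry seed or below it. Of the 1695 lower genes, 416 (24.5%) were back within 1 of their dry level or above it at 72 HAI. These later values share the 6 HAI and dry arrays with the calls and are given without a test. The change from dry seeds to 6 HAI differed between polysomal and total mRNA for 18 of the 229 genes followed by name (7.86%), beside 9.23% of all genes tested, with limma and the same thresholds.

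**Figure D3:**
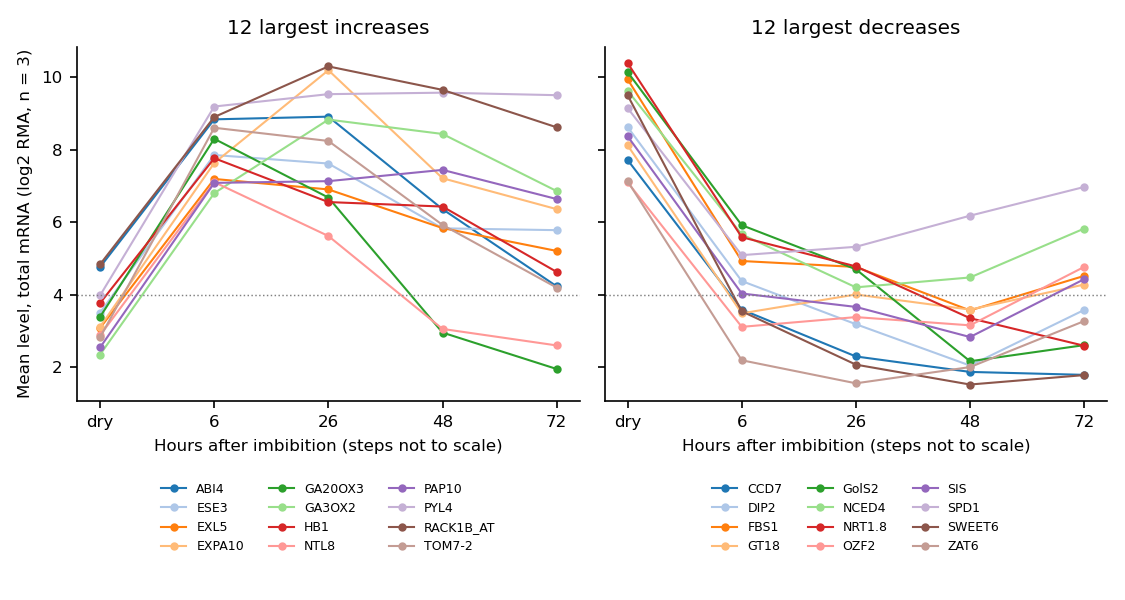
Mean level of total mRNA on the log2 scale (n = 3 arrays per point) in dry seeds and at 6, 26, 48 and 72 HAI for the 12 largest increases (left) and decreases (right) between dry seeds and 6 HAI; time steps are not to scale and the dotted line is the noise level of 4. GA20OX3 and NTL8 peak at 6 HAI and fall below 4, PYL4 stays near 9.5, and none of the decreasing genes returns to its dry level.

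The mRNAs of seed filling stayed near the top of the range. None of the 9 storage protein genes tested passed the thresholds, and their median change was -0.35 against 0.10 for all genes. Their median dry level was 11.67, and the 264 genes with a dry mean above 10 had a median change of -0.60. CRA1, a cruciferin, was at 11.77 ± 0.06 in dry seeds and 11.67 ± 0.05 at 6 HAI (SD, n = 3). Of the 9, SESA2, an albumin, had the largest difference, from 8.18 ± 0.17 to 7.20 ± 0.25 (SD, n = 3, adjusted p = 0.0055 from limma), just short of the size threshold. It passed without replicate 1 at 6 HAI (-1.12) or replicate 2 of dry seeds (-1.08) and after a further quantile normalization (-1.14). The 6 oil body genes, oleosins and caleosins, had a median change of -0.38 and no call, with OLEO1 at 11.94 at 6 HAI, 0.06 below its dry mean. All 15 changes were below 0. The highest dry mean of any gene tested was 12.22, so most of these genes lay near the upper end of the scale. The standard error of the change of CRA1 was 0.50, larger than the SDs at these times, because the fit takes 1 spread per gene over all 10 groups. By 72 HAI CRA1 was at 4.03 and OLEO1 at 4.91.

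Late embryogenesis abundant (LEA) proteins protect cells during drying. Of the 18 on the list, 17 were tested, 3 fell and 1 rose, beside 9.93% lower and 16.8% higher of all genes. The median dry level of the 17 was 11.09 and their median change was -0.54. Genes with a dry mean above 10 had a median change of -0.60. LTI30, a dehydrin also called XERO2, fell from 10.20, 9.96 and 10.32 to 6.89, 7.18 and 6.91, and RAB28 fell from 9.53, 9.66 and 9.48 to 6.58, 6.71 and 6.83. LEA7 fell by 1.93. SAG21 (LEA5), a mitochondrial member of the group, rose from 4.64, 4.20 and 4.68 to 6.63, 6.59 and 7.07. Others stayed high. RAB18 (AT5G66400) was at 12.03 and 11.78 and M17 at 11.88 and 11.83, and 13 of the 17 were not called.

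Small heat shock proteins hold unfolded proteins in dry seeds. Of the 8 tested, with HSP101, only HSP21, the plastid form, changed, from 6.23, 6.09 and 6.84 to 5.18, 5.71 and 4.80. Without replicate 3 of dry seeds its change was -0.93, and without replicate 3 at 6 HAI it was -0.94, so that it was not called. Without replicate 3 of dry seeds HSP18.2 was called higher instead (1.17). HSFA9, the heat stress factor that drives these genes in developing seeds, fell from a mean of 9.51 to 5.79, a change of -3.72 (0.32, adjusted p = 2.81e-10 from limma). In the heat stress factor family, 4 of the 17 tested members were lower and 2 higher, beside 9.93% lower and 16.8% higher of all genes. There were 2 lower without replicate 1 or 3 of dry seeds, 1 higher without replicate 2 of dry seeds or replicate 3 at 6 HAI, and 6 lower and 0 higher after a further quantile normalization.

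Many genes of ABA signalling and dormancy fell. Of 27 tested, 12 (44.4%) were lower and 2 higher, beside 9.93% and 16.8% of all genes, and the median change was -0.85. The list was chosen with earlier results of these data known. It did not hold PYL4, the ABA receptor that rose by 5.21. The largest decreases on the list were those of ABI2 and HAI1, protein phosphatases of clade A. These enzymes inhibit the kinases of ABA signalling, and their genes are induced by ABA. ABI2 fell from 9.22, 9.45 and 9.21 to 5.44, 5.82 and 5.18, a change of -3.81 (0.16, adjusted p = 4.93e-16 from limma). HAI1 fell from 6.03, 6.02 and 6.42 to 2.26, 2.89 and 2.22, which is below noise. HAB1, PP2CA and AHG1 fell by 1.72, 1.43 and 1.16 (AHG1 by 0.92 and not called after a further quantile normalization). ABI1, the closest relative of ABI2, instead went from 6.49 to 7.44 and did not reach the size threshold (a change of 0.95, standard error 0.14). Without replicate 2 of dry seeds ABI1 was called higher (1.04).

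DOG1, the seed dormancy gene, fell from 6.82, 6.32 and 6.94 to 3.81, 4.29 and 3.53, a change of -2.82 (0.28, adjusted p = 3.88e-09 from limma). The ABA synthesis genes NCED3, of the rate-limiting step, and ABA1, the zeaxanthin epoxidase, fell by 1.79 and 1.13. NCED3 ended below noise at 3.02, 1.84 and 2.62. CYP707A1, which breaks ABA down, fell by 1.30 with both means at noise (3.84 and 2.54), and its change was -0.99 without replicate 1 of dry seeds. CYP707A2, the main such enzyme of seeds, went from 5.22 to 6.11, an increase of 0.88 that did not reach the size threshold, except without replicate 3 at 6 HAI (1.004).

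The seed transcription factors of the list went in different directions. ABI5, a bZIP factor that blocks germination, fell from 10.16, 10.10 and 10.23 to 9.22, 8.96 and 8.94, and FUS3, a factor of seed maturation, fell from 4.83, 4.63 and 4.71 to 3.01, 3.87 and 3.10. ABI4 rose from 4.34, 5.19 and 4.77 to 8.77, 9.00 and 8.74, and with it OST1 (SNRK2.6), a kinase of the ABA pathway, from 2.86, 3.20 and 2.90 to 4.09, 4.73 and 4.17. ABI3 was at 8.60 and 9.24, a difference within 1. MFT (named E12A11 in RefSeq), a regulator of ABA and GA responses, fell by 1.17. Of the other endosperm markers, EPR1 went from 11.20 to 10.51 and CYP707A2 from 5.22 to 6.11 without a call, and the part of a change in endosperm RNA in the fall of MFT was not tested.

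More genes of GA synthesis and response rose than fell. Of 22 tested, 9 (40.9%) were higher and 3 (13.6%) lower, beside 16.8% and 9.93% of all genes. Their median change was 0.12, close to that of all genes. In addition to GA20OX3 and GA3OX2, GA20OX2 rose from 3.78, 3.31 and 3.04 to 7.02, 6.63 and 7.13. GA20OX1 and GA3OX1 rose by 1.31 and 1.17, although only to means of 4.18 and 4.46. Without replicate 2 at 6 HAI the change of GA3OX1 was 0.93. The early synthesis genes were not called, with GA3 at 0.11 and KAO2 at -0.49. GA2OX6, which inactivates GA, fell from 4.34, 4.72 and 4.75 to 3.18, 2.98 and 3.36.

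Of the 5 DELLA repressors, 3 rose with the synthesis genes. RGL2, the main DELLA of seeds, rose from 5.80, 5.26 and 5.89 to 8.43, 8.32 and 8.39. RGA1 rose from 4.80, 4.54 and 5.15 to 7.85, 7.94 and 7.77, and GAI rose by 1.91. RGL1 and RGL3 were at 0.16 and -0.13. SLY1, the F-box protein that marks DELLA proteins for destruction, rose by 1.47. The GA receptor GID1C fell from 7.31, 7.46 and 7.35 to 6.51, 6.01 and 6.08, and GID1A was at 9.86 and 9.48 (adjusted p = 0.0535 from limma). GASA4, a GA-induced gene, had a change of -1.01 that rests on overlapping arrays near the noise level and was lost without replicate 2 or 3 at 6 HAI (-0.65 and -0.82) or replicate 1 or 2 of dry seeds (-0.94 and -0.76).

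**Figure D4:**
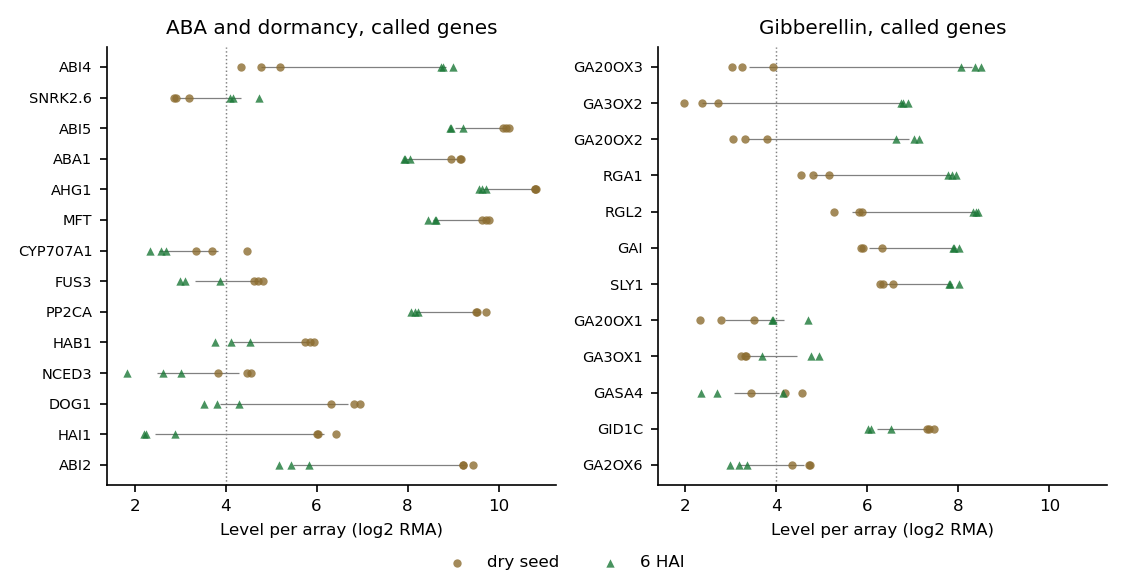
Level on the log2 scale in each dry seed array (circles) and each array at 6 HAI (triangles) for the 14 called genes of ABA and dormancy (left) and the 12 called genes of GA synthesis and response (right), ordered by their change; the dotted line is the noise level of 4. On the left 12 of 14 genes lie lower at 6 HAI, and on the right 9 of 12 lie higher.

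Ribosome biogenesis was the list with the highest share of rising genes. Of the 22 tested, 18 (81.8%) rose and none fell, beside 16.8% and 9.93% of all genes, with a median change of 1.59. FIB2, a fibrillarin that methylates ribosomal RNA, rose from 6.35, 6.20 and 6.31 to 9.94, 9.94 and 9.94, an increase of 3.66 (0.12, adjusted p = 1.31e-17 from limma). ENP1 (AT1G31660), NOP56 and EDA25 (SWA2), all nucleolar assembly factors, rose by 2.86, 2.66 and 2.50. The groups were wide apart for each of them. The nucleolins NUC-L1 and NUC-L2 rose by 1.74 and 2.38, from dry means of 9.32 and 3.93. At 72 HAI FIB2 was at 7.87, while EDA25 was down to 4.58 and NUC-L2 to 2.79.

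Translation initiation factors and ribosomal proteins had shares of rising genes above that of all genes. Of the 22 initiation factors tested, 12 (54.5%) rose and none fell, led by EIF3G2 (2.1), EIF3B-2 (1.76), EIF4B2 (1.54) and EIF3A (1.53). EIF4A1, an RNA helicase, went from a mean of 8.26 to 9.68. Of 66 ribosomal protein genes tested, 39 (59.1%) rose and none fell. Of these, the largest increases were in RPL10B (3.33), RPS5B (2.99), RPSAb (2.89) and RPL24A (2.42), of which RPL10B and RPSAb began near noise. Of the 10 aminoacyl-tRNA synthetases named in RefSeq, ATKRS-1 (1.75) and TWN2 (1.56) rose, a share (20%) near that of all genes (16.8%), and their median change was 0.24. Of 26 RNA polymerase subunits 4 (15.4%) were higher, also near that share, among them NRPA2 of RNA polymerase I (1.29) and NRPC1 of RNA polymerase III (2.05), and NRPD7 lower (-1.51).

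Many molecular chaperones that fold newly made or imported proteins rose. Of 21 tested, 15 (71.4%) were higher and none lower, beside 16.8% and 9.93% of all genes, with a median change of 1.14. The mitochondrial mtHsc70-1 rose from 6.41, 6.19 and 6.04 to 9.07, 8.94 and 9.00. HSP60-2 and HSP60, chaperonins of the mitochondrion, rose by 2.45 and 1.72. The cytosolic Hsp70-2 rose from 2.79, 2.96 and 3.62 to 5.77, 5.62 and 6.05. The plastid chaperonins CPN60A, CPN60B and CPN20 rose by 1.14, 1.09 and 1.01, and CPN10 (AT1G14980), which is not a plastid form, by 1.23. CPN60B and CPN20 are close to the threshold, and without replicate 3 at 6 HAI the change of CPN60B was 0.99 (0.93 after a further quantile normalization), and that of CPN20 was 0.95 without replicate 1 of dry seeds and 0.996 without replicate 2 at 6 HAI.

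In the import machinery of mitochondria 9 of 18 genes tested (50%) rose and none fell, beside TOM7-2, which was not on that list. The inner membrane channel proteins TIM23-2 and TIM23-3 rose by 2.16 and 2.06. TIM23-2 went from 6.88, 6.58 and 6.55 to 8.97, 8.79 and 8.74. The intermembrane chaperones TIM8 and TIM10 rose by 1.55 and 1.29 and the outer membrane pore TOM40 by 1.31. The genes of the mitochondrial genome themselves gave 15 higher (16.3%, beside 16.8% of all genes) and 1 lower of 92 tested (median 0.31), and those of the plastid genome 0 higher and 2 lower of 15 (median -0.35).

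Of the 38 proteasome subunits tested, 15 (39.5%) rose and none fell, beside 16.8% and 9.93% of all genes. Their median change was 0.94. RPT5B, an ATPase of the regulatory particle, rose from 5.88, 5.59 and 5.65 to 7.67, 7.59 and 7.70. PBB2, PBC2 and PAD2, subunits of the catalytic core, rose by 1.80, 1.56 and 1.47. Of the 19 U-box ubiquitin ligases tested 5 (26.3%) fell and none rose, beside 9.93% and 16.8% of all genes. Only 3 fell without replicate 2 of dry seeds or replicate 3 at 6 HAI. PUB9 fell from 6.71, 6.95 and 6.61 to 4.38, 4.38 and 4.21, and PUB19 by 2.14.

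Some genes of histones and of the cytoskeleton rose at this early time. Of 22 histone genes 10 (45.5%, beside 16.8% of all genes) were higher, led by HTB4 (2.54) and GAMMA-H2AX (2.33). HTA13 was lower (-1.43), and 11 were not called. Of 14 tubulin genes 7 (50%) rose and 3 (21.4%) fell, beside 16.8% and 9.93% of all genes. Without replicate 3 at 6 HAI 1 fell. TUB3 rose from 5.46, 5.86 and 5.70 to 8.14, 8.04 and 7.92, and TUB8 and TUA5 by 2.32 and 2.05, whereas TUB7 fell from 6.19, 6.03 and 6.08 to 4.24, 4.46 and 4.17. None of the MCM helicase genes on the list was called, with dry means of 2.25 to 3.40, and 4 of 19 genes of replication and the cell cycle rose (21.1% beside 16.8% of all genes). These were PCNA2 (2.1), the DNA clamp of replication, and the D-type cyclins CYCD2;1 (1.37), CYCD3;2 (1.37) and CYCD3;3 (1.29, or 0.94 and not called after a further quantile normalization).

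Of 18 genes of cell wall loosening tested, 5 (27.8%) were higher and 2 (11.1%) lower, beside 16.8% and 9.93% of all genes, and 11 were not called. EXPA10 went from 3.46, 2.70 and 3.20 to 7.62, 7.48 and 7.80, EXPA8 from 3.84, 4.52 and 4.60 to 7.22, 7.0 and 7.25, and EXP3 from 5.07, 3.78 and 4.93 to 6.85, 7.20 and 7.38. No dry array reached the lowest imbibed array in any of these expansins. Of the 22 expansin genes tested, 4 were higher, close to the share of all genes (16.8%), and 2 lower, with a median change of -0.24. EXPA20 was the fourth to rise (2.36), and EXPA13 and EXLA1 were lower (-1.65 and -1.98). The XTH enzymes cut and rejoin xyloglucan, and of 25 tested 3 (12%) rose and 5 (20%) fell. XTH9 and XTH16 rose by 1.55 and 1.26 to means of 4.59 and 4.18. XTH25 fell from 11.47, 11.50 and 11.44 to 9.67, 9.52 and 9.35, XTH11 fell by 1.69, and XTH18 fell by 1.27 with overlapping arrays. Without replicate 1 of dry seeds or replicate 3 at 6 HAI, 3 XTH genes were lower. MAN5, an endo-mannanase, fell from 6.57 to 5.28. CSLC5, a xyloglucan backbone synthase, fell from 7.84, 7.87 and 7.58 to 5.07, 4.51 and 4.11.

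In the response to low oxygen, 6 genes of 18 tested (33.3%) were higher and 4 (22.2%) lower, beside 16.8% and 9.93% of all genes. HB1, which scavenges nitric oxide, went from 4.48, 3.15 and 3.69 to 7.52, 7.87 and 7.91. HRA1 (AT3G10040), a repressor of the hypoxia response, went from 2.50, 2.31 and 2.67 to 5.66, 5.72 and 5.69, and PCO1 (AT5G15120), an oxygen-sensing oxidase, from 4.76, 4.99 and 4.33 to 7.69, 7.68 and 7.64. PCO2 (AT5G39890) rose by 1.62. The fermentation genes split. PDC1 (AT4G33070), a pyruvate decarboxylase, rose by 1.57, its relative PDC2 fell from 9.87, 9.93 and 9.86 to 8.51, 8.63 and 8.53, and ADH1 was at 10.87 and 10.65 (adjusted p = 0.475 from limma). The alternative NADH dehydrogenases NDA2 and NDB2 fell by 1.81 and 1.44.

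The lipid reserves of the seed are turned into sugar through peroxisomal oxidation, the glyoxylate cycle and gluconeogenesis. Of the 20 genes on the list, all tested, 4 rose and none fell, close to the share of all genes (20% beside 16.8%), and their levels were already high in dry seeds, with a median of 8.99. PCK1, of gluconeogenesis, rose from 10.03, 9.95 and 10.04 to 11.33, 11.39 and 11.36. ACO3, an aconitase, ACX2, an acyl-CoA oxidase, and PMDH1, the peroxisomal malate dehydrogenase, rose by 1.48, 1.46 and 1.08. The glyoxylate cycle genes ICL and MLS were at 11.08 and 11.31 in dry seeds and 0.60 and 0.39 higher at 6 HAI, short of the size threshold.

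Raffinose sugars accumulate as seeds dry and are used on imbibition. GolS2 and the stachyose synthase STS fell by 4.22 and 1.48, while SIP2, an alkaline α-galactosidase that breaks raffinose down, rose from 9.55, 9.54 and 9.44 to 10.89, 11.07 and 10.92. SIP1 (AT1G55740), of the same family, rose from 2.80, 3.14 and 3.28 to 4.80, 5.31 and 5.36. GolS1, another galactinol synthase, was at 10.74 and 10.79, a change of 0.04 against -4.22 for GolS2.

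A similar contrast between relatives was seen in enzymes of repair and of oxidant removal. PIMT2, which repairs aged proteins, fell from 9.22, 9.09 and 9.42 to 7.52, 7.39 and 7.45, and PIMT1 rose from 3.94, 3.21 and 3.06 to 5.11, 4.93 and 4.85. APX6, an ascorbate peroxidase of ripening seeds, fell by 1.82 and APX1, the cytosolic form, rose by 1.91. PARP3 (AT5G22470), a seed ADP-ribosyltransferase, fell by 1.53 from a mean of 11.53, and PARP1 rose by 1.05 from 3.21, or by 0.93 without replicate 3 at 6 HAI and 0.999 without replicate 1 of dry seeds. Within each of these families 1 member fell and another rose. In all, 4 of 21 genes (19%) were higher and 4 (19%) lower, beside 16.8% and 9.93% of all genes. CAT1, a catalase of seeds, fell by 1.41. PER1, a seed peroxiredoxin, went from 11.18 ± 0.02 to 10.15 ± 0.05 (SD, n = 3) and was not called over the 30 arrays (standard error 0.57, adjusted p = 0.127 from limma) but was with the 6 compared arrays only (standard error 0.12, adjusted p = 0.000446 from limma). It was the single gene of all tested that gained a call in this way.

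Stress-responsive regulators were among the mRNAs that fell most. Of 19 tested genes of immediate stress and jasmonate responses, 5 (26.3%) were lower and 2 (10.5%) higher, beside 9.93% and 16.8% of all genes. TCH2 rose by 2.22, and 12 were not called. STZ (ZAT10), a zinc finger repressor, fell from 9.38, 9.25 and 9.24 to 5.56, 5.53 and 5.29, next to ZAT6, and MPK3, a kinase of stress signalling, fell by 1.89. In the ERF and DREB family 9 of 32 tested genes (28.1%) were lower and 1 higher, or 3 higher after a further quantile normalization. RAP2.4 (AT1G22190), a factor of drought responses, fell from a mean of 10.24 to 4.98, a change of -5.26 (it has no symbol in RefSeq and so is not among the 12 above), and DREB2A, of drought and heat responses, and RAP2.6 fell by 2.58 and 2.41. The exception was ERF73 (HRE1), of the hypoxia response, which rose by 1.08, and by 0.99 and 0.996 without replicate 2 or replicate 1 of dry seeds.

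The NAC family had large changes in both directions. Of 41 tested, 7 rose and 5 fell, both close to the shares of all genes (16.8% and 9.93%). The 5 that fell had dry means of 8.80 to 11.31, and the 7 that rose had dry means of 2.89 to 6.89. Without replicate 2 of dry seeds 8 were lower, with NAC046, NAC3 and NAC2 added. RD26, a factor induced by ABA and drought, fell by 3.60 from a mean of 8.80, and NAC032 and NAC062 fell by 2.79 and 2.33. NTL8 rose from 2.37, 3.42 and 2.87 to 6.95, 7.09 and 7.29, and NAP by 1.95. Of the 39 WRKY factors 6 (15.4%) fell and 3 (7.69%) rose, beside 9.93% and 16.8% of all genes. The falls were led by WRKY3 (-1.86), WRKY17 (-1.64) and WRKY4 (-1.49), and the rises by WRKY21 (1.37). In the bZIP family the small sucrose-regulated members bZIP44, bZIP2 and GBF6 (bZIP11) rose by 2.44, 2.37 and 2.33, while their relative bZIP1 fell from 5.23, 5.32 and 5.48 to 3.60, 3.81 and 3.53. Of 31 MYB factors tested, 3 (9.68%, beside 16.8%) rose and none fell, although 2 were lower without replicate 3 of dry seeds. MYB94, a regulator of cuticular wax, had the largest increase of these, from a mean of 2.80 to 6.12.

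The JAZ and TIFY family holds repressors of jasmonate signalling and their relatives. Of 16 tested, 4 (25%) fell and 1 (6.25%) rose, beside 9.93% and 16.8% of all genes. JAZ4, JAZ8, JAZ12 and JAZ3 fell by 1.36 to 1.49 and JAZ1 rose by 1.46, and without replicate 2 of either group 2 members rose. Of 15 auxin response factors 4 (26.7%, beside 16.8% of all genes) rose and none fell, although ARF18 was lower after a further quantile normalization (-1.11). ARF8 and ARF6, which promote growth, rose by 2.11 and 1.75, with ARF17 (1.32) and ETT (1.06). The change of ETT was 0.87 without replicate 1 of dry seeds, and 0.996 and 0.99 without replicate 1 or 3 at 6 HAI, and 0.70 after the quantile normalization. Of 21 Aux/IAA genes 4 (19%) fell and 2 (9.52%) rose, beside 9.93% and 16.8% of all genes. Without replicate 3 of dry seeds 1 rose. IAA30, a non-canonical Aux/IAA protein, fell from 5.10, 5.65 and 6.08 to 2.23, 2.21 and 2.87, and IAA12 rose by 1.31. SAUR36 fell by 3.18. None of the 5 PIN auxin carriers tested was called.

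Among enzymes of specialized metabolism, more P450 and glycosyltransferase genes fell than rose. Of 100 cytochrome P450 genes tested, 19 (19%) fell and 5 (5%) rose, beside 9.93% and 16.8% of all genes. CYP81D8 fell from 7.83, 7.87 and 7.46 to 3.81, 3.46 and 4.49, and CYP76C7 and CYP76C2 fell by 3.75 and 3.40. CYP96A11 had the largest increase of the family (2.42), from noise to a mean of 5.66. Of the 47 UDP-glycosyltransferases, 8 (17%) fell, led by UGT73C7 (-2.49) and UGT85A5 (-2.30), and 4 rose, led by UGT85A2 (2.06). Of 30 glutathione transferases, which conjugate toxic compounds, 4 (13.3%) rose and 3 (10%) fell, beside 16.8% and 9.93% of all genes. Without replicate 1 of dry seeds 2 rose. GSTU9 changed by -2.99 and GSTF7 by 1.77.

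Transporters went both ways. Of 64 ABC transporters tested, 11 (17.2%) were higher and 10 (15.6%) lower, beside 16.8% and 9.93% of all genes. ABCG11, which exports wax and cutin precursors, rose from 3.55, 3.69 and 4.16 to 7.77, 7.68 and 7.76, and ABCB15 and ABCB4 rose by 3.26 and 2.48. ABCI21 fell by 2.38, and ABCG25, an ABA exporter chosen here after its values were seen, fell from 5.17, 5.31 and 5.36 to 3.22, 3.21 and 2.72. Among 23 aquaporins, PIP3, of the plasma membrane, rose from 4.07, 3.14 and 3.42 to 6.09, 5.79 and 5.84, and BETA-TIP, of the storage vacuole, fell from a mean of 10.36 to 8.42. The photosynthesis genes were still low. Of 20 tested none rose and 2 (10%) fell, near the share of all genes (9.93%), and LHCB4.1 fell by 1.33. The lower genes numbered 5 without replicate 3 of dry seeds and 0 with treat. They numbered 1 under several other alternatives, among them the fit of the 6 compared arrays only. After a further quantile normalization 1 gene was higher. Both means of CAB1 were below noise (3.30 and 2.14). Its fall rested on replicate 2 of dry seeds, with a change of -0.33 without that array. The call was also lost without replicate 2 or 3 at 6 HAI (-1.19 and -0.97).

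**Figure D5:**
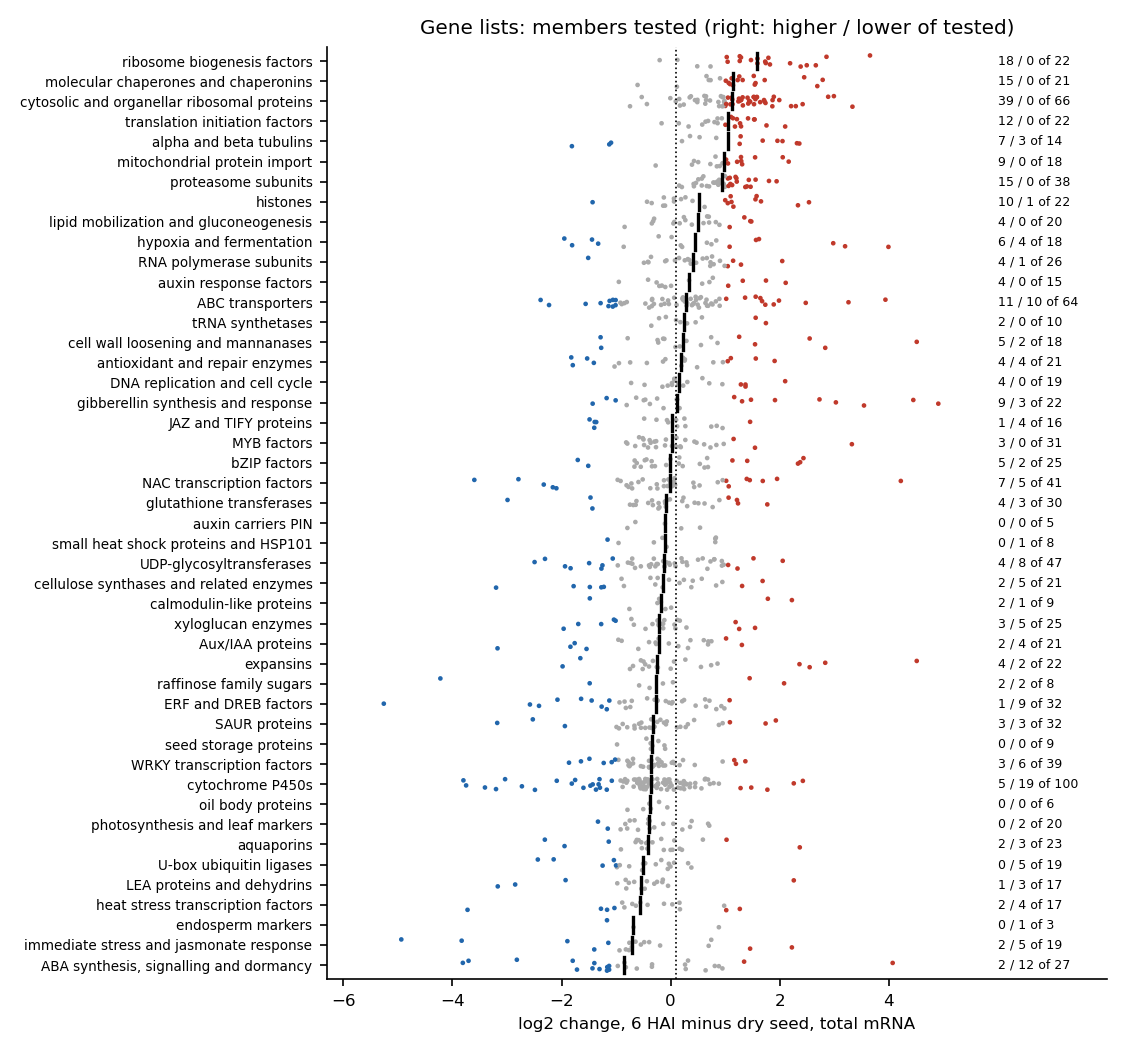
Log2 change from dry seeds to 6 HAI in total mRNA for every tested member of the 46 gene lists (points; red called higher, blue called lower, grey not called), with the median of each list (black bar) and the median of all genes tested (dotted line, 0.10); the counts at the right are higher / lower of tested. The lists of ribosome biogenesis, chaperones, ribosomal proteins and initiation factors lie to the right with no member called lower, and ABA and dormancy lies farthest to the left.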

How the data were processed

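Total mRNA of dry seeds and of seeds at 6 HAI was compared on Affymetrix Arabidopsis Gene 1.1 ST arrays. The authors deposited log2 values per gene from RMA, which corrects the background, quantile-normalizes the probe signals and summarizes them per gene. The methods and the labels name different labelling kits, and which was used was not settled. An array has no sequencing depth, and the number of arrays limits the precision. The labels give 3 biological replicates per group and number them, and no array column went unused (0 further columns).

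In R 4.3.3 with limma 3.58.1, all 30 arrays entered a linear model that gives each group its own mean. The contrast of 6 HAI minus dry seeds was tested after empirical Bayes moderation, and p-values were adjusted by Benjamini-Hochberg for the 17061 genes that exceeded 4 in every replicate of some group. Calls needed a log2 change above 1 in size and an adjusted p below 0.05. Errors after a change are standard errors of this fit. The fit was tested on simulated data. Figures were drawn with matplotlib 3.10.9.

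The members and lists were chosen with earlier results of these data known. Lists were written by function or taken from gene names in the RefSeq table for TAIR10.1, which held 27241 of the 27827 loci, and 27 intended members were left out because that table did not give the name or the array did not hold the locus. Lists are described by counts and medians only. The genes named are the 12 largest increases and 12 largest decreases among called genes with a symbol and without overlap of the arrays, and up to 4 called members of each list. Further members of a list, and members that were not called, were named after their values were seen. Genes of one family with similar sequence can share probe signal.

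Alternatives were other noise filters, equal array medians, a further quantile normalization, fits of fewer arrays, the replicate number as a block, robust moderation with an intensity trend, weights for array quality, a test against a 2-fold change with limma's treat, and leaving out each of the 6 arrays. Same-numbered arrays did not deviate together (correlations of -0.03 to 0.00 over the genes tested), so the numbers were not taken as pairs. Sequences were not analysed here.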

Additional observations from a re-analysis of the deposited data

Results flagged for a closer look

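For 18 of the genes followed here, the change from dry seeds to 6 HAI differed between polysomal mRNA (the mRNA bound to several ribosomes) and total mRNA, tested as an interaction with limma at an adjusted p below 0.05 and a difference above 1 in size. They are 7.86% of the 229 genes followed, beside 9.23% of all genes tested (1574) that met the same thresholds. The genes followed were named for large changes on the same total mRNA arrays, which favours a smaller change in polysomal mRNA. The difference ran against the total mRNA change for 17 of the 18. It did so for 1050 of the 1574 among all genes tested, and for 370 of 493 among the genes called in total mRNA. Each value is how far the polysomal change exceeds the total change on the log2 scale. Of the genes that fell in total mRNA, LTI30 (1.99), NRPD7 (1.40), FBS1 (1.32), GSTU4 (1.27) and JAZ12 (1.01) fell less in polysomal mRNA. For NRPD7 the polysomal change was -0.11 against -1.51 in total mRNA, and for LTI30 it was -1.18 against -3.17. NCED3 fell more in polysomal mRNA (-1.004). Of the genes that rose, NRPC1 (-1.53), ABCB4 (-1.47), HSP60-2 (-1.39), PAP10 (-1.37), ARF8 (-1.24), ARF6 (-1.16), HSP60-3A (-1.16), EDA25 (-1.12), ABCG11 (-1.07), PIMT1 (-1.06), mtHsc70-1 (-1.06) and PIP3 (-1.04) rose less in polysomal mRNA. All 12 still had a polysomal change above 0.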

How the results depend on the processing

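The 2871 higher and 1695 lower genes became 1220 and 744 when limma's treat was used against a 2-fold change, which by construction asks for more than the size threshold alone. Leaving out each array in turn gave 2776 to 3020 higher and 1671 to 1768 lower genes. With the replicate number as a block the counts were 2870 and 1694, and this block changed no call among the 229 genes followed. A further quantile normalization gave 2386 and 1932, of which 2220 and 1675 were shared with the calls reported, and moved the share of higher genes among the calls from 62.9% to 55.3%. All 24 leading genes were called under every alternative, and no gene followed changed direction. Of the 229, 81 were not called with treat and 24 were lost under at least one other alternative, 20 of them when an array was left out. A gene removed by a stricter noise filter was not counted as lost by it. A filter at 5 kept 219 of the 229. A filter on total mRNA of dry seeds and 6 HAI alone kept 215. With treat the ABA and dormancy list had 5 lower genes in place of 12, chaperones 5 higher in place of 15 and proteasome subunits 5 in place of 15, and ribosome biogenesis 13 in place of 18. Signals at the noise level of 4 and near the top of the scale limit the sizes given.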
